A study of Homo sapiens with 4 samples.

Results

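The human keratin genes were examined in ATAC-seq peak lists from MCF10A cells with inducible TAZ. Keratin genes were taken as the protein-coding genes of GENCODE release 44 whose symbol is KRT with a number and an optional letter. This rule gave 55 of 19970 protein-coding genes, 28 in the type I cluster of chromosome 17 and 27 in the type II cluster of chromosome 12. The second number includes KRT18, which encodes a type I keratin but lies beside KRT8, so it was counted by position. Of 149858 accessible regions in the genome, 50 lay within 20 kb of a keratin transcription start site (TSS), 40 on chromosome 12 and 10 on chromosome 17. Of these 50 regions, 28 lay within reach of more than 1 keratin gene, and in 49 the nearest coding gene was a keratin.

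The cells were MCF10A, a mammary epithelial line of human origin that is not transformed, and they carried TAZ-4SA, a constitutively active TAZ, under a tet-inducible promoter. Cells without doxycycline (No Dox) were compared with cells given 0.05 µg/mL for 72 h (Dox), with 2 samples per condition. Both conditions carried the transgene, and cells treated with doxycycline but lacking it were not analysed here, so effects of the drug and of TAZ-4SA cannot be told apart. The question was where accessible chromatin differs once TAZ is switched on. The 2 samples of each condition had been pooled into 1 peak list, 84353 peaks with Dox and 117740 without, so no spread between samples is known and no test between conditions was possible. Read counts were not part of the lists, and the depth behind each peak is unknown. Confidence intervals for shares are exact Clopper-Pearson intervals of 95%, and they cover counting error only.

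Keratins form the intermediate filaments of epithelial cells. Each filament pairs an acidic type I chain with a basic type II chain, and the chains are made in characteristic partnerships. KRT8 and KRT18 are the pair of simple epithelia such as the luminal layer of the breast, KRT5 and KRT14 the pair of basal cells in stratified epithelia and of the basal layer of the breast, and KRT6A, KRT16 and KRT17 are switched on in wounded or hyperproliferative skin. Other pairs belong to the differentiating epidermis, the cornea, the inner root sheath and the hair shaft. TAZ binds no DNA itself and reaches it through TEAD factors, whose binding sequence is known.

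The sequences shown first are those of the 5 regions near keratin genes that were open with Dox alone and carried a TEAD match. Each is the hg38 sequence of 201 bases centred on the summit, the point of strongest signal, of the region's strongest peak, read on the strand of the nearest keratin gene. Capitals mark matches to TEAD (ACATTCC or GCATTCC) and AP-1 (TGACTCA or TGAGTCA) on either strand, so a match on the other strand appears as its reverse complement.
KRT7, 2.15 kb upstream of the TSS, chr12:52230992-52231192, plus strand: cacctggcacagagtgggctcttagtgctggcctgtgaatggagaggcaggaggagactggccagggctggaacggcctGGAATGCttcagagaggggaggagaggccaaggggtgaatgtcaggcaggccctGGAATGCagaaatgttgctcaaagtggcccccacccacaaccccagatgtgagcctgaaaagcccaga
KRT6A, 3.45 kb upstream, chr12:52496608-52496808, minus strand: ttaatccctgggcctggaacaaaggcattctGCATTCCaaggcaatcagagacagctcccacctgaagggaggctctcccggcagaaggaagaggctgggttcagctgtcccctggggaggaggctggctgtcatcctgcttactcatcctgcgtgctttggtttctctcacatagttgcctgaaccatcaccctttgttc
KRT5, 2.21 kb upstream, chr12:52522509-52522709, minus strand: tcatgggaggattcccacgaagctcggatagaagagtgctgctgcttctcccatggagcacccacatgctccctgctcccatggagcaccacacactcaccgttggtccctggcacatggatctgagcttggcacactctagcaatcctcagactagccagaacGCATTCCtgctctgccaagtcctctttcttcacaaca
KRT8, intron, 20.2 kb upstream of the canonical TSS, chr12:52925223-52925423, minus strand: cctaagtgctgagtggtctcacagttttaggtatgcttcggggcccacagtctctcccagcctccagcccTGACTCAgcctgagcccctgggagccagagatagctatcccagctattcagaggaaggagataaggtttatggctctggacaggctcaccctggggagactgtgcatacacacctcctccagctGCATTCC
KRT18, 3.05 kb upstream, chr12:52945972-52946172, plus strand: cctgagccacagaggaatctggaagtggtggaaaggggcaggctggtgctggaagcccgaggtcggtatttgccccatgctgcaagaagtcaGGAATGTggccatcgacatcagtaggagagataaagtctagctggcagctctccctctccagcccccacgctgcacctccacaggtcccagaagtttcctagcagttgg
The KRT7 region held 2 TEAD matches, 18 bp before and 36 bp after its summit counted along the chromosome, the KRT18 region had its match 5 bp from the summit, and the KRT8 region combined a TEAD match at 97 bp with an AP-1 match at 27 bp. A match is a description of the sequence and no evidence that a factor was bound.

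Most keratin promoters had no peak in either list. A promoter was called open where a peak lay within 1 kb of the TSS of any transcript of the gene, and closed where none did. A promoter called closed had no peak above the threshold of the authors' peak caller and need not be inaccessible. By this measure 8 keratin promoters were open in both lists, 3 with Dox alone, 0 without Dox alone and 44 of 55 in neither (80%, 95% CI 67.0 to 89.6). Across all coding genes 65.3% were open in both lists, 5.85% with Dox alone, 3.92% without Dox alone and 24.9% in neither. The keratin share in neither list thus lay far above that of coding genes at large, while the share open with Dox alone, 5.45%, was close to it.

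The clusters differed in how many promoters were open. In the type II cluster 6 promoters were open in both lists (KRT80, KRT7, KRT86, KRT5, KRT8 and KRT18) and 2 with Dox alone (KRT6A and KRT78). In the type I cluster 2 were open in both lists (KRT15 and KRT17) and 1 with Dox alone (KRT16), which left 25 of 28 closed in both. The difference between 8 of 27 and 3 of 28 open promoters was not tested, since neighbouring keratin genes are not independent.

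The count depends on which start site is used. With only the TSS of the Ensembl canonical transcript, 4 promoters were open in both lists (KRT80, KRT5, KRT18 and KRT17), 4 with Dox alone (KRT7, KRT8, KRT6A and KRT78), 1 without Dox alone (KRT15) and 46 in neither. The corresponding shares over all coding genes were 60.1%, 5.58%, 3.84% and 30.5%. KRT7 and KRT8 thus moved from open in both to open with Dox alone, because their No Dox peaks lay at other start sites, and KRT86 and KRT16 moved to neither.

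**Figure D1:**
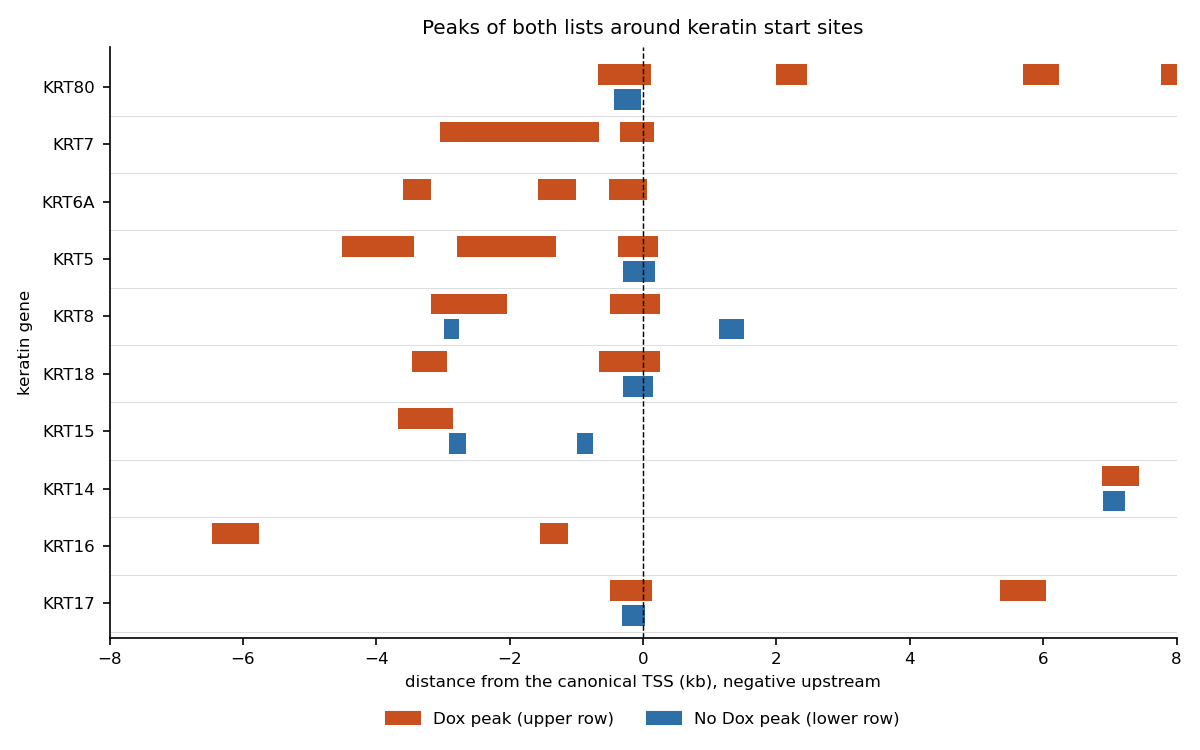
Peaks of the Dox list (upper row of each gene) and of the No Dox list (lower row) around the canonical TSS of 10 keratin genes, with distance from the TSS in kb on the horizontal axis, negative upstream. At KRT7, KRT6A and KRT8 the peak over the start site comes from the Dox list alone, at KRT5, KRT18 and KRT17 both lists have one, at KRT80 the No Dox peak ends 33 bp upstream of the start site, and at KRT14 neither list has a peak within 6 kb.

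By role, open promoters belonged mainly to the simple, basal and wound-activated keratins. Of the 5 simple keratins 3 were open in both lists, of the 3 basal keratins 2, and of the 5 wound-activated keratins 1 in both and 2 with Dox alone. All 10 keratins of epidermal, corneal and mucosal differentiation (KRT1, KRT2, KRT3, KRT4, KRT9, KRT10, KRT12, KRT13, KRT76 and KRT77) were closed in both lists, and so were all 8 of the inner root sheath. Of the 17 hair keratins 16 were closed and KRT86 was the exception. The 7 remaining keratins had 1 promoter open in both lists, KRT80, and 1 with Dox alone, KRT78.

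KRT8 and KRT18, the simple epithelial pair, lie next to each other and are transcribed in opposite directions. The peak over the KRT18 promoter had a fold of 6.78 with Dox and 5.72 without, where fold is the authors' enrichment of the summit over background. Backgrounds differ between the lists, so folds were also ranked as the percent of peaks in the same list with a lower fold, and by this rank the KRT18 promoter stood at 77.9% with Dox and 77.4% without. KRT18 was therefore nearly as prominent in one list as in the other. The canonical KRT8 promoter had a Dox peak of fold 6.56 (rank 76.5%) reaching over its TSS, and the nearest No Dox peak began 1.15 kb away inside the gene. That intragenic peak, of fold 3.81, was open without Dox alone. KRT8 also has long transcripts with other starts. By the start beside KRT18 its promoter was open in both lists, through the same region as KRT18, while the peak of fold 7.91 near another upstream start was listed with Dox alone.

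KRT7, a type II keratin of simple and glandular epithelia, was open at its canonical TSS with Dox alone. A Dox peak of fold 6.10 lay over the TSS and another, of fold 6.33 and 2376 bp in width, lay just upstream, whereas the nearest No Dox peak was 9.88 kb away. Further into the gene both lists had peaks. A region of 1889 bp in an intron had folds of 4.97 with Dox and 6.14 without, and a stretch of 8910 bp, spanning the end of KRT7 and the upstream start of KRT86, held 1 Dox peak of fold 7.46 and 5 separate No Dox peaks of folds from 2.97 to 4.24. Upstream of KRT7, at 15.9 kb from the TSS, a region of fold 5.51 was open without Dox alone, and at 19.6 kb one of fold 5.20 was open with Dox alone. Far upstream each list thus had regions of its own, while at the TSS Dox peaks stood alone.

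KRT5, the type II keratin of basal cells, was open at its TSS in both lists, with a fold of 5.88 with Dox (rank 71.5%) and 3.39 without (rank 31.9%). Upstream of it were 2 regions in the Dox list alone, with summits 2.21 and 3.79 kb from the TSS, widths of 1482 and 1077 bp and folds of 6.78 and 4.97. The first is the TEAD-bearing region printed above. No region within 20 kb of KRT5 was open without Dox alone. Its type I partner KRT14 had no promoter peak in either list, and the nearest peaks, 6.88 kb away with Dox and 6.90 kb without, formed a shared region of folds 4.29 and 3.39 downstream of the gene. The partners of the basal pair therefore differed in promoter state in both conditions, although both are known as keratins of basal breast cells.

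KRT6A, a keratin of wounded epidermis, was the only one of the 3 KRT6 genes with an open promoter. Its Dox peak had a fold of 4.29 (rank 50.4%), the nearest No Dox peak was 27.0 kb away, and 2 more Dox-only regions followed upstream at 1.39 and 3.45 kb with folds of 5.43 and 5.65. All 3 regions were absent from the No Dox list. KRT6B and KRT6C had no promoter peak, but the 3 genes are near-identical copies and reads may not have been placed uniquely. When 100-base pieces of each promoter were aligned back to hg38, 15.4% of pieces from KRT6A, 23.1% from KRT6B and 28.2% from KRT6C had a mapping quality under 10. In each of the 3 Dox-only regions at KRT6A, 0% of pieces fell under that limit. How the authors treated reads of low mapping quality is not given in the sources used here.

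KRT16 and KRT17, type I keratins that are also induced in wounds, lie side by side on chromosome 17. KRT17 was open in both lists with folds of 4.29 and 3.39 (ranks 50.4% and 31.9%). KRT16 had a Dox peak of fold 3.62 (rank 29.0%) whose edge was 998 bp from a TSS, just inside the 1 kb limit, and 1.13 kb from the canonical TSS, just outside it. The No Dox peak nearest to the canonical KRT16 start was 11.8 kb away. A further Dox-only region of fold 4.07 lay between the genes, 5.59 kb from the TSS of KRT17, and it held an AP-1 match. The call for KRT16 rests on its distance limit and is the least secure of the named promoters.

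KRT15 and KRT19, neighbours on chromosome 17 known from basal and from simple epithelial cells, shared a region that was open without Dox alone. At the canonical KRT15 TSS the nearest peak was 746 bp away, had a fold of 3.39 and was listed without Dox alone. A shared region 3.25 kb upstream, at an alternative KRT15 start, had folds of 4.52 and 3.60. KRT19 had no promoter peak and was the only keratin with more No-Dox-only than Dox-only regions within 20 kb, 1 against 0, and that region was the same one as at KRT15. A single peak of fold 3.39 (rank 31.9%) carries this contrast.

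KRT80, a type II keratin found in many epithelia, had the highest Dox promoter fold of the family, 8.59, beside 6.14 without Dox (ranks 85.9% and 80.0%). Inside the gene were 3 further regions, open with Dox alone, all of fold 3.39 (rank 19.0%). The edge of 1 of them lay 31 bp from another KRT80 start site. KRT78 had a single Dox-only promoter peak of fold 2.71, the lowest fold in the Dox list, and a No-Dox-only region of fold 3.18 at 11.3 kb. KRT81 and KRT86, hair keratins that overlap on opposite strands beside KRT7, shared a run of regions. Of the regions within 20 kb of KRT86, 8 were Dox-only, 4 were shared and 0 were No-Dox-only, and near KRT81 the numbers were 4, 1 and 0. The canonical promoters of both genes had no peak, and 38.5% of the pieces of the KRT81 promoter aligned ambiguously, the highest share of the family.

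**Figure D2:**
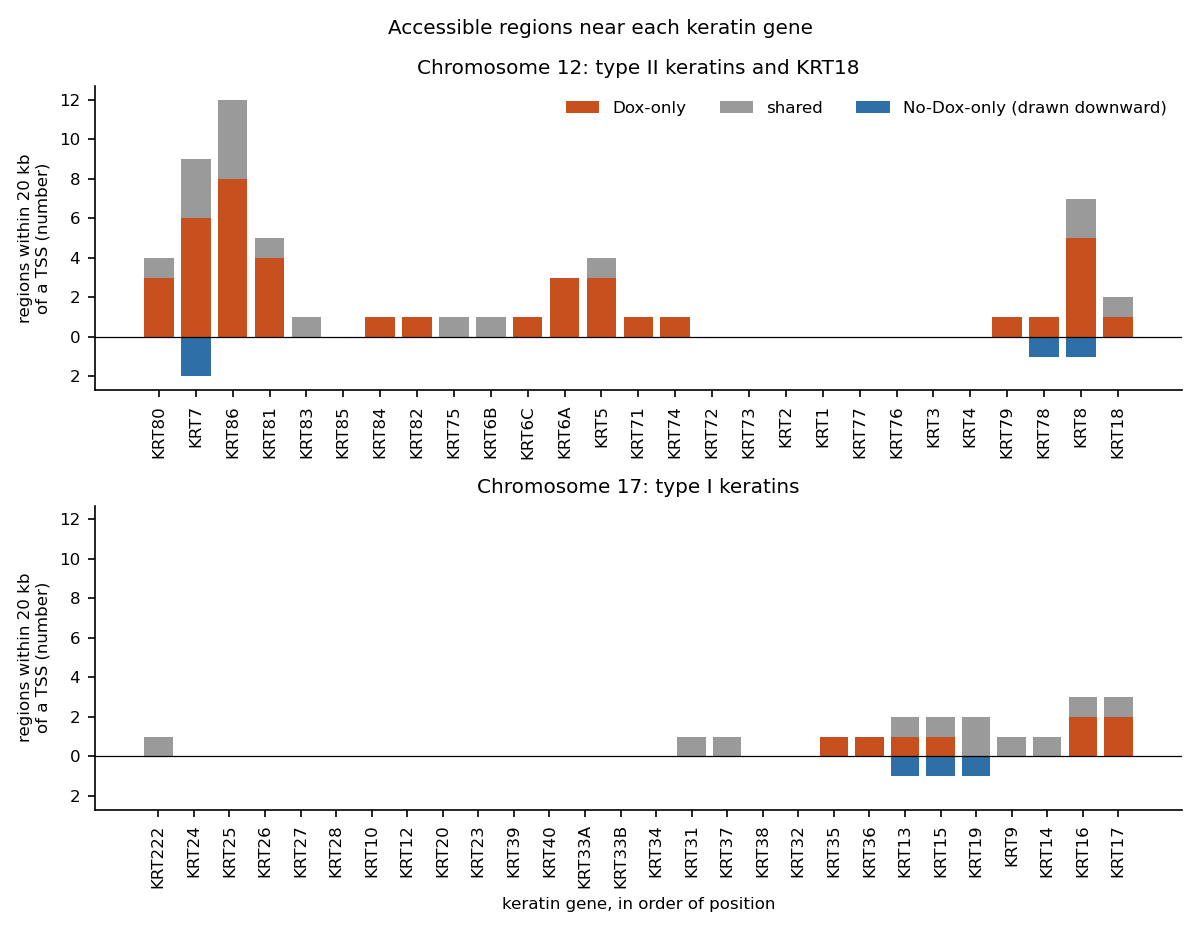
Number of accessible regions within 20 kb of each keratin gene, in order of position along chromosome 12 (top) and chromosome 17 (bottom), with Dox-only and shared regions stacked upward and No-Dox-only regions drawn downward. Regions near several genes are drawn at each. KRT86 has the most, 8 Dox-only and 4 shared, and 25 of the 55 genes have none. The share of all coding genes with none was not computed.

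Regions open in 1 condition were mostly Dox-only in the type II cluster. Overlapping peaks of both lists had been merged into regions, and a region with peaks from 1 list alone is called condition-only. A region missing from a list fell below the threshold of the authors' peak caller and need not be closed. In the type II cluster, 10 regions were shared, 26 belonged to the Dox list alone and 4 to the No Dox list alone, so that 86.7% of its condition-only regions were Dox-only (95% CI 69.3 to 96.2). Across all regions within 20 kb of a coding TSS this share was 48.9% (16519 of 33803), and on chromosome 12 it was 43.3%. Among strong regions, whose peak reached at least the median fold of the list it came from (4.07 with Dox, 3.81 without), 16 in the type II cluster were Dox-only and 3 No-Dox-only (84.2%, 60.4 to 96.6), against 43.8% near coding genes at large.

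The type I cluster held too few condition-only regions for a share to be read. It held 6 shared regions, 3 from the Dox list alone and 1 from the No Dox list alone, a Dox-only share of 75% with an interval from 19.4 to 99.4. Chromosome 17 near coding genes stood at 76.4%. Both clusters joined gave 29 regions open with Dox alone and 5 open without it alone (85.3%, 68.9 to 95.0). Counted by gene, 18 keratins had more Dox-only regions within 20 kb, 1 had more No-Dox-only regions (KRT19) and 3 had equal numbers (KRT78, KRT13 and KRT15). The other keratins had no condition-only region. These are the same regions counted again, and 28 of the 50 keratin regions lay near more than 1 keratin, so the genes are not independent. The division over all coding genes was not computed.

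The excess in the type II cluster was spread over separate stretches. Around KRT7, KRT81 and KRT86, 10 regions were open with Dox alone and 2 without Dox alone, around KRT5 and KRT6A 5 and 0, and around KRT8 and KRT18 5 and 1. Without the first group the cluster's share was 88.9%, and without the last 87.5%. Regions near other coding genes around the cluster had a high share too. Only regions within 20 kb of a coding TSS and outside the keratin windows were counted there. Within 1 Mb on each side, 21 regions were open with Dox alone and 6 without Dox alone (77.8%, 57.7 to 91.4), an interval that overlaps that of the cluster, and the flanks of the type I cluster stood at 94.1%. The Dox-only share of the type II cluster was therefore above that of chromosome 12 but was not shown to differ from that of its own neighbourhood.

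**Figure D3:**
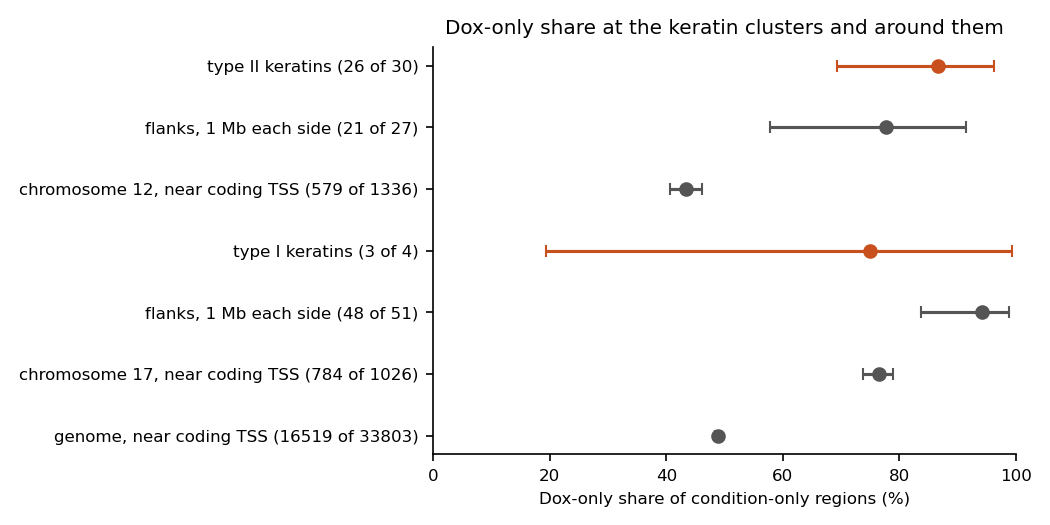
Share of condition-only regions that were Dox-only, in percent, for the keratin clusters (orange), their flanks of 1 Mb on each side and regions near coding genes (grey). Flanks count only regions within 20 kb of a coding TSS. The exact 95% intervals cover counting error only. The type II cluster, 86.7%, lies above chromosome 12, 43.3%, and its interval overlaps that of its flanks, 77.8%, while the type I interval spans 19.4 to 99.4.

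Base composition moved with this share. Near coding genes Dox-only regions had a median GC content of 55.5% and No-Dox-only regions 46.6%, while the keratin medians were 58.2% among Dox-only regions, with a range from 47.5% to 69.9%, and 59.4% in the No-Dox-only group. Among condition-only regions with at least 55% GC, 17 of 20 in the type II cluster were Dox-only (85.0%, 62.1 to 96.8), against 63% on chromosome 12 and 69.8% near all coding genes. Between 50% and 55% GC the numbers were 7 of 8 in the cluster against 37.4% on chromosome 12. The distance to the chromosome was thus smaller among GC-rich regions, and the part of GC content in the result was not tested.

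The Dox-only regions with the highest folds lay near KRT8 and KRT5. On chromosome 12 they were 2 neighbouring intronic regions of long KRT8 transcripts, 7.91 and 7.23 in fold and over 20 kb upstream of the canonical TSS, the upstream region of KRT5 with 6.78, and the canonical KRT8 promoter with 6.56. The 4 No-Dox-only regions of the cluster had folds from 3.18 to 5.51, and the strongest of them was the one 15.9 kb upstream of KRT7. On chromosome 17 the 3 Dox-only regions had folds of 3.16, 3.62 and 4.07 and the single No-Dox-only region 3.39. Dox-only regions of the type I cluster were weaker than the strongest ones of the type II cluster, which reached 7.91. Most Dox-only summits of the type II cluster lay in introns (14) or between genes (10), and 2 lay in coding exons.

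Regions open in both lists were compared by the log2 ratio of their highest Dox fold to their highest No Dox fold, centred on the median of all 48557 shared regions, so that 0 is the typical shared region. The median was 0.44 over the 10 shared regions of the type II cluster and 0.41 over the 6 of the type I cluster, and the middle 50% of all shared regions lay between −0.29 and 0.31. Above the typical ratio were 8 of 10 and 5 of 6 regions. At least 1.5 times above it were 4 regions of the type II cluster and 1 of the type I cluster, against 11.4% of all shared regions, and at least 1.5 times below it were 0 and 1, against 10.1%.

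The highest ratios were at KRT86, KRT7 and KRT5. A region in an intron of KRT86 had folds of 8.59 and 4.87, a centred log2 ratio of 0.89, the long region at the end of KRT7 also reached 0.89, and the KRT5 promoter 0.87. A region 6.40 kb upstream of KRT83, a hair keratin, followed with 0.75. The lowest ratios on chromosome 12 were −0.23 in the KRT7 intron, −0.19 near KRT8 and 0.06 near KRT86, all inside the middle range of shared regions. The KRT5 promoter was thus shared by the lists but stood relatively higher with Dox, and the KRT18 promoter, at 0.32, was at the edge of the middle range.

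On chromosome 17 the ratios of 5 shared regions lay between 0.05 and 0.58, and 1 was far lower. The region 17 kb from the TSS of KRT222, which lies at the start of SMARCE1, was exactly 1.5 times above the typical ratio, and the regions at KRT14 and KRT17 both stood at 0.42. The exception was a region 6.56 kb upstream of the hair keratin KRT31, with folds of 2.94 with Dox and 5.51 without and a centred log2 ratio of −0.83. It held 2 AP-1 matches and was the only shared keratin region at least 1.5 times below the typical ratio.

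**Figure D4:**
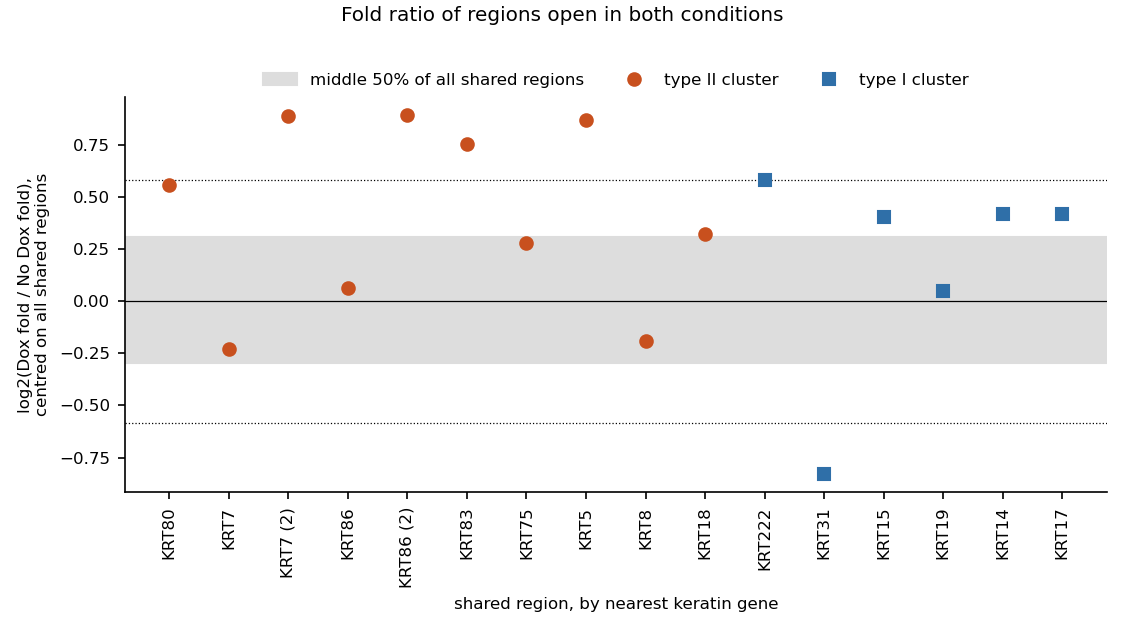
Centred log2 ratio of Dox to No Dox fold for the 16 shared keratin regions, named by the nearest keratin gene, with type II regions as circles and type I regions as squares. The grey band is the middle 50% of all shared regions, −0.29 to 0.31, and dotted lines mark 1.5 times above and below the typical ratio. Most keratin regions lie above 0, KRT86, KRT7 and KRT5 lead with 0.87 to 0.89, and the region near KRT31 is lowest at −0.83.

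Long stretches of both clusters had no peak in either list. On chromosome 17 a stretch of 412 kb (chr17:40648332-41060222) held 12 keratin genes from KRT222 to KRT40 without a peak, among them KRT10 of the differentiating epidermis, KRT12 of the cornea, KRT20 of the gut and the inner root sheath keratins KRT25 to KRT28. On chromosome 12 a stretch of 286 kb (chr12:52562208-52847844) held the starts of 10 genes from KRT74 to KRT79, among them KRT1 and KRT2 of the epidermis and KRT3 of the cornea. A further stretch of 92.3 kb on chromosome 17 held 5 hair keratins (KRT37, KRT38, KRT32, KRT35 and KRT36). In all, 16 of 28 type I and 9 of 27 type II genes had no region within 20 kb. The share of all coding genes with no such region was not computed. How common stretches of this length without a peak are elsewhere was not computed either. Most keratin regions were gathered at a few places, around KRT80, from KRT7 to KRT81, at KRT6A and KRT5, at KRT8 and KRT18, and from KRT13 to KRT17. Scattered regions lay elsewhere, among them a shared one near KRT75 with folds of 6.10 with Dox and 5.30 without.

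Keratin promoters also differed from other promoters in sequence. In the 500 bp around the canonical TSS the median GC content was 53.4% for the 55 keratins and 64.6% for all coding genes, and only 5 keratins (9.09%) had a CpG observed-to-expected ratio of at least 0.6, against 68.5% of coding genes. The sequence TATAAA stood 40 to 16 bases before the TSS in 20 of 55 keratins (36.4%) and in 3.95% of coding genes. Among the 11 keratins with a peak at any start site, the median GC content at the canonical TSS was 62.6% and 2 had the TATAAA sequence there, and among the 44 others it was 52.8% and 18 had it. These 25-base windows at the canonical TSS show TATAAA in capitals at KRT17, open in both lists, at KRT16, whose peak lies near another start site, and at KRT14, which was closed, beside KRT7 and KRT6A, which lack the exact letters and were open with Dox alone at this TSS.
KRT16, chr17:41612783-41612807, minus strand: ccccagctgcaTATAAAggtctctg
KRT17, chr17:41624591-41624615, minus strand: tggtggccTATAAAggaagcgggcg
KRT14, chr17:41586911-41586935, minus strand: ctacccacgagTATAAAgcactcgc
KRT7, chr12:52233203-52233227, plus strand: ccgctcccgcggataaaaggcgcgg
KRT6A, chr12:52493273-52493297, minus strand: tgctctccatatataagctgctgcc
KRT5 and KRT8 were open too without the exact letters, and related AT-rich sequences were not searched.

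TEAD matches were found in 5 of the 29 Dox-only keratin regions (17.2%, 5.85 to 35.8) within 100 bp of the summit, against 11.2% of Dox-only regions near coding genes, and in 0 of 5 No-Dox-only regions, against 5.46%. The interval covers the share at large, so a difference was not detectable with 29 regions. All 5 are in the type II cluster and are the regions printed above near KRT7, KRT6A, KRT5, KRT8 and KRT18. Shared regions near KRT75, a keratin of the hair follicle's companion layer, and KRT15 also had a match (2 of 16, against 7.91%). The reversed TEAD sequence (CCTTACA or CCTTACG), used as a control, was found in 0 of 29 Dox-only and 1 of 16 shared regions. Near coding genes it was found in 1.85% of Dox-only and 1.80% of shared regions. With a sequence so rare, 0 of 29 says little.

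AP-1 matches were found in 2 of 29 Dox-only regions (6.90%, against 7.14% near coding genes) and 4 of 16 shared regions (25%, against 13.8%). The shared regions were the KRT80 promoter, the KRT7 intron and the regions upstream of KRT83 and KRT31. Of the 5 No-Dox-only regions 1 had an AP-1 match, against 12.9% near coding genes. The GC box (GGGCGG) was found in 1 of 29 Dox-only keratin regions, the KRT7 promoter, and in 14.2% of Dox-only regions near coding genes. AP-2 (GCCNNNGGC) matched in 4 of 29 (13.8%, against 14.6%) and RUNX (TGTGGT or TGCGGT) in 4 of 29 (13.8%, against 18.4%). The p53/p63 motif, known from basal epithelial genes, was found in 0 of the 50 keratin regions in its strict form. It was rare throughout, at 0.200% of Dox-only, 0.348% of shared and 0.631% of No-Dox-only regions near coding genes.

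Genes that work with keratin filaments were mostly open in both conditions. Of 16 genes for desmosomal and other filament partners, 14 were open in both lists, against 65.3% of all coding genes, and the 2 exceptions, FLG and TCHH, bundle keratins in the differentiating epidermis and the hair follicle. DSP, which encodes desmoplakin, the anchor of keratin filaments in desmosomes, had its highest promoter peak at a fold of 10.4 with Dox and 10.8 without. PKP1, a desmosomal plaque protein of stratified epithelia, was counted as open in both by any start site, but at its canonical TSS with Dox alone. Within 20 kb of it, 21 regions were listed with Dox alone, 4 without Dox alone and 13 in both. The numbers for PLEC, another of the 16 partners, were 16, 0 and 11. Among these partners, DSP and DST went the other way, with 0 against 1 and 3 against 4. How often coding genes at large have counts like that of PKP1 was not computed. Of 16 other intermediate filament genes, 5 were open in both lists, 2 with Dox alone, 1 without Dox alone and 8 in neither. The corresponding shares over all coding genes were 65.3%, 5.85%, 3.92% and 24.9%. VIM, which encodes the mesenchymal filament vimentin, was open in both, with highest promoter folds of 8.14 with Dox and 13.3 without. Backgrounds differ between the lists, and the folds of DSP and VIM were not ranked, so they give no measured change. Among 94 genes for keratin-associated proteins of the hair shaft, 4 promoters were open with Dox alone, 3 without Dox alone and 87 in neither. Most were thus closed in both lists, as were most hair keratins. Over all coding genes 5.85% were open with Dox alone, 3.92% without Dox alone and 24.9% in neither.

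The label of the cells was checked against markers. All 8 epithelial markers had promoters open in both lists, against 65.3% of all coding genes. Among them were KRT5, KRT8 and KRT18, which belong to the family examined here. Also open in both lists were 1 of 5 endothelial markers (KDR), 1 of 5 melanocyte markers (PMEL), 1 of 6 immune markers (CD14) and 3 of 5 neural markers. The other 2 neural markers, GFAP and RBFOX3, and the immune marker CD79A were open with Dox alone, and the immune markers ITGAM and PTPRC without Dox alone. These calls used the TSS of any transcript. With the canonical TSS alone, KRT8 was open with Dox alone and GRHL2 without Dox alone, while GFAP, RBFOX3, ITGAM and PTPRC were open in neither list. Promoter peaks are not expression, and by them the neural list was not closed in these cells.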

How the data were processed

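ATAC-seq of 4 MCF10A samples, 2 No Dox and 2 Dox, was analysed from 1 deposited peak list per condition. Alignment by the authors was to hg38 with BWA, and MACS2 at an FDR of 0.05 gave the peaks of each condition from its pooled samples. How reads that align to several places were treated is not given in the sources used here. The deposited fold of each peak is the authors' ratio of pooled signal to background at the summit, and the deposited −log10 of its q-value was used for thresholds. The study's own differential regions, made from read counts, were not analysed here.

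Overlapping or touching peaks of the autosomes and chromosome X were merged into regions. TSS and genes came from GENCODE release 44, and sequences, GC content and motifs from hg38, on which all peaks lay within the chromosome ends. Pieces of 100 bp every 50 bp were aligned with minimap2 2.31. The keratins, lists and motifs were chosen with earlier results of these data known. Named were keratins with a promoter peak, the 8 with the most condition-only regions, the 4 strongest condition-only regions in each direction and the 3 highest and lowest shared ratios per cluster. Regions printed as sequence were chosen for their TEAD matches, and 1 region that the rule names is not reported here. No test between conditions was made. The steps were tested on simulated data, where the class was right for 100% of 3000 regions and 100% of 400 planted motifs were recovered. Alternatives were stricter q-values, lists of equal length, other TSS sets and distances, summits alone, strong peaks, other overlap and merging rules, and another centring. Leaving out the regions of KRT7, KRT81 and KRT86 or of KRT8 and KRT18 was added after seeing the data. Computations used scipy 1.17.1, pandas 2.3.3 and numpy 2.4.6 under Python 3.11.15, with figures by matplotlib 3.10.9.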

Additional observations from a re-analysis of the deposited data

How the results depend on the processing

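No paired analysis was possible because the samples of each condition had been pooled before the lists were deposited, and leaving out a sample could not be run for the same reason. The Dox-only share of the type II cluster stayed between 84.2% and 96.0% under 13 alternatives. That of the type I cluster was 100% among strong regions, where 1 region was Dox-only and 0 were No-Dox-only, and lay between 62.5% and 85.7% under the other 10. The median centred log2 ratio of shared regions kept its sign, at 0.32 to 0.56 in the type II cluster and 0.05 to 0.44 in the type I cluster. Of promoter counts, those of the type I cluster without Dox fell from 2 to 0 at a q-value of 1e-05 and also among strong peaks, those with Dox fell from 3 to 1 with the canonical TSS alone, and those of the type II cluster without Dox fell from 6 to 3 with the canonical TSS alone, in each case because fewer peaks or start sites were counted. KRT80, KRT18 and KRT6A kept their promoter state under all 9 alternatives, KRT16 under 4 of 9. KRT7 kept its state under 7 of 9. It had a promoter peak in only 1 list with protein-coding transcripts alone and with the canonical TSS alone. KRT78 was not open at a q-value of 0.01. KRT5 and KRT17 kept a peak in 1 list at a q-value of 1e-05 and among strong peaks.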

Other observations

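The annotation holds 149 keratin pseudogenes, most of them far from the clusters, with 14 on chromosome 12 and 21 on chromosome 17. A peak lay within 1 kb of the start of 9 of them with Dox and of 19 without. The No Dox list is the longer one, with 117740 peaks against 84353. The shares over all pseudogenes were not computed, so these 2 counts show no change particular to keratin pseudogenes. The highest folds within 1 kb of a start were at KRT8P12 on chromosome 3, with 26.2 with Dox and 26.9 without, and at KRT18P59 on chromosome 11, with 23.3 and 28.4. Whether these peaks belong to neighbouring genes was not tested. Inside the type II cluster, near KRT87P, a relic of a hair keratin gene, a region of fold 5.20 was open with Dox alone and a neighbouring shared region had folds of 2.94 with Dox and 2.97 without.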
